A study of Mus musculus with 12 samples.

Results

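Protein arginine methyltransferases were described here by the RNA of 9 genes, Prmt1, Prmt2, Prmt3, Carm1, Prmt5, Prmt6, Prmt7, Prmt9, and Wdr77, found by their Ensembl identifiers among the 12591 genes of the expression table. All 9 were listed, whereas Prmt8, the remaining enzyme of the family, was not listed in the table used here. The cells were embryonic fibroblasts of the mouse strain C57 PER2::LUC, in which luciferase is fused to the circadian clock protein PER2. They were grown to confluence in 10 cm dishes and then kept for 24 h in medium with 3.3 mM HCl alone (CTL) or with HCl plus 10 μM Deazaneplanocin A (DZ), 1 mM adenine, or 1 mM S-adenosylmethionine (SAM), with 3 dishes per group. DZ inhibits AHCY, the enzyme that clears S-adenosylhomocysteine (SAH), and the study asked whether excess SAM, through its breakdown to adenine, acts on methylation as DZ does. The HCl was part of every group, so no dish was free of it. The 3 replicates of a group were dishes of the same cells, and p-values measure the spread between such dishes only.

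Arginine methyltransferases transfer methyl groups from SAM to arginine residues of proteins and release SAH, which inhibits them when it accumulates. Type I enzymes (PRMT1, PRMT2, PRMT3, CARM1, and PRMT6) make asymmetric dimethylarginine, type II enzymes (PRMT5 and PRMT9) make symmetric dimethylarginine, and PRMT7 makes monomethylarginine. WDR77, also called MEP50, is not an enzyme but the partner with which PRMT5 forms its active complex. Their substrates are histones and many RNA-binding proteins, among them the Sm proteins of the spliceosome, and methylthioadenosine (MTA), a product of SAM in polyamine synthesis, is a known inhibitor of PRMT5.

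Values are log2 CPM, a scale in which the reads of a gene are set against those of the whole library after the authors' scaling, and a difference of groups is given on the same log2 scale. The 12 libraries held between 45649534 and 56789090 reads on the listed genes, and the 9 genes had between 810 and 10089 reads in each library, so counting noise was small for all of them. Replicate dishes still differed by more than counting noise over all genes (chi-square over its degrees of freedom 4.76 to 19.1). Of 10 fibroblast markers 8 were listed (Dcn and Lum were not), with a summed level of 14.41 to 14.44 log2 CPM in CTL, 14.76 to 14.79 with DZ, 14.56 to 14.70 with adenine, and 13.95 to 14.07 with SAM. None of the 5 epithelial and 5 endothelial markers was listed, and of 6 leukocyte markers only Cd68 was, at 1.60 to 2.00 in CTL, 1.45 to 1.92 with DZ, 3.44 to 3.63 with adenine, and 3.96 to 4.14 with SAM. Of 6 muscle and nerve markers Tubb3 and Map2 were listed, with sums of 3.51 to 3.59 in CTL, 3.64 to 3.83 with DZ, 4.75 to 4.82 with adenine, and 3.99 to 4.18 with SAM. These levels moved with the treatments, and their part in the results was not tested.

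Prmt1 and Prmt3 were the members with lower RNA than CTL at an FDR under 0.01 in limma under both adenine and SAM. The 250 bases before their annotated transcription starts (GENCODE vM39, GRCm39) are shown for that reason. They lie on chromosome 7 at chr7:44635993-44636242 (minus strand, written along the gene) and chr7:49427833-49428082 (plus strand). Capitals mark matches, on either strand, to the E-box CACGTG, the GC box GGGCGG, and the CCAAT box.
Prmt1: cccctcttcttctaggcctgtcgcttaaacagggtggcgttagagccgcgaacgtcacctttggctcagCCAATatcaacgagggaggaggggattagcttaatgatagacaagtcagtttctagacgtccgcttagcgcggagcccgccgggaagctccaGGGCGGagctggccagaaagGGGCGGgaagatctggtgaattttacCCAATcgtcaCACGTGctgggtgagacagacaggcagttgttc
Prmt3: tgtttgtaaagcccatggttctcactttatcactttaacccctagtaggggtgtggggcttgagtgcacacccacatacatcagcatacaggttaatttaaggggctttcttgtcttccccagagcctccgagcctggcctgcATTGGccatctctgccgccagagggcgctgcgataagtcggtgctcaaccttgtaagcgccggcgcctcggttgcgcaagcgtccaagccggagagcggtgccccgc
The Prmt1 window held 1 E-box, 28 to 33 bases before the start, with 2 GC boxes and 2 CCAAT boxes, and the Prmt3 window held only 1 CCAAT box, on the opposite strand, 103 to 107 bases before the start. Among 10948 such windows of protein-coding genes in the table, 8.07% held the E-box, 51.6% the GC box, and 36.8% the CCAAT box. Of the 9 members, Prmt1 held the E-box, Prmt1, Carm1, and Wdr77 held a GC box, and Prmt1, Prmt2, Prmt3, and Prmt5 held a CCAAT box. Windows were taken before the start of the main annotated transcript. Those of Prmt2 and Prmt9 therefore lay inside the annotated gene, and those of Prmt6 and Prmt7 did so in part. GCATGCGC, TTTNGCGC, TGATGNAA, and CCGGAAG, which occur in 3.6%, 1.9%, 2.03%, and 10.7% of windows, had no match in the windows of the members. The motifs did not overlap in the printed windows, and a match is a string of letters, not a shown binding site. GC content was 56.4% for Prmt1 and 57.6% for Prmt3, close to the median of 57.2% over all windows.

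Compared per kilobase of the main annotated transcript, Prmt1 had the highest RNA level of the 9 genes in CTL, with a mean of 6.79 log2 CPM per kb, followed by Carm1 with 5.60 and Prmt5 with 5.02. Prmt3 (4.70), Wdr77 (4.64), and Prmt2 (4.58) lay close together, although the ranges of their 3 CTL dishes did not overlap. Prmt7 was at 4.24, and Prmt9 (3.06) and Prmt6 (2.72) were the lowest. Under DZ the order was the same, but the ranges of Prmt3 and Wdr77 overlapped, as did those of Prmt2 and Prmt7. Under adenine Prmt3 moved from rank 4 to rank 7 with 4.18 log2 CPM per kb, overlapping Prmt7. Under SAM it was at rank 7 with 3.81, and Wdr77 was at rank 6 with 4.11, overlapping Prmt7. This order depends on the transcript length used, since with the length of all annotated exons Prmt3 was at rank 7 in CTL already, Wdr77 at rank 4, and Prmt9 at rank 9. With that length Prmt1 and Carm1 were level in CTL, both at 5.08. Carm1 was then at rank 1 under DZ, adenine, and SAM, with Prmt1 at rank 2.

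**Figure D1:**
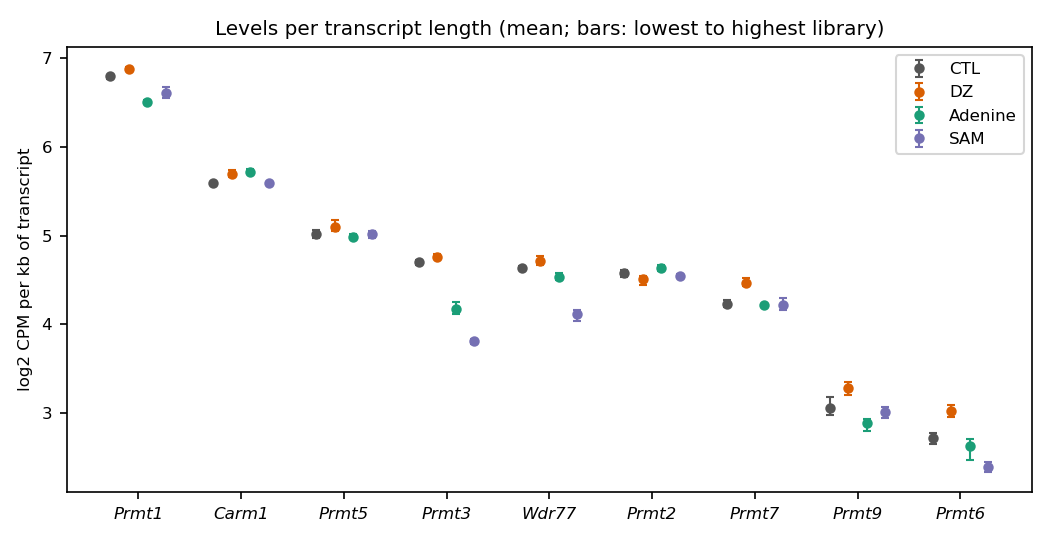
RNA level per transcript length, as mean log2 CPM per kb of the main annotated transcript, for the 9 genes in the 4 groups of 3 dishes, with bars from the lowest to the highest dish. Genes are ordered by their level in CTL, and Prmt3 falls from 4.70 in CTL to 4.18 with adenine and 3.81 with SAM, below Prmt2 and Prmt7.

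By limma at a Benjamini-Hochberg FDR under 0.01 over all genes, 4 of the 9 genes were changed by DZ, all higher than in CTL (Carm1, Prmt6, Prmt7, and Prmt9), where 45.9% of all genes were changed, 22.6% higher and 23.4% lower. Adenine changed 3 (Carm1 higher, Prmt1 and Prmt3 lower), where 61.6% of all genes were changed, 30.6% higher and 31% lower. SAM changed 4, all lower under the authors' scaling (Prmt1, Prmt3, Prmt6, and Wdr77), where 69.3% of all genes were changed, 33.7% higher and 35.7% lower. As shares of the 9 members in either direction, these counts are close to or below the shares of all genes. The changes were also small, since the median absolute difference of the members was 0.086 under DZ, 0.11 under adenine, and 0.049 under SAM, compared with 0.18, 0.27, and 0.34 over all genes. The largest change of a member, that of Prmt3 under SAM, was exceeded by 16.6% of all genes in absolute size.

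In bulk RNA, fewer cells of a type and less RNA per cell cannot be told apart, and the differences are relative to the authors' scaling. Estimated here from the reads on the listed genes alone, the scaling factors ranged from 0.962 to 0.968 for CTL libraries and from 1.047 to 1.054 for SAM libraries. Plain read totals of the listed genes in their place moved the median difference of all genes under SAM by 0.12, from -0.015 to 0.11. The median difference of the members under SAM then moved from -0.049 to 0.074, and that under adenine from -0.092 to -0.030. The members called under SAM changed as well. Prmt3 and Wdr77 were still lower, Prmt1 and Prmt6 were not called, and Carm1 (0.11) and Prmt5 (0.12) were called higher. The 3 comparisons with CTL share the CTL dishes, so the values of a gene in them are set side by side without being compared.

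**Figure D2:**
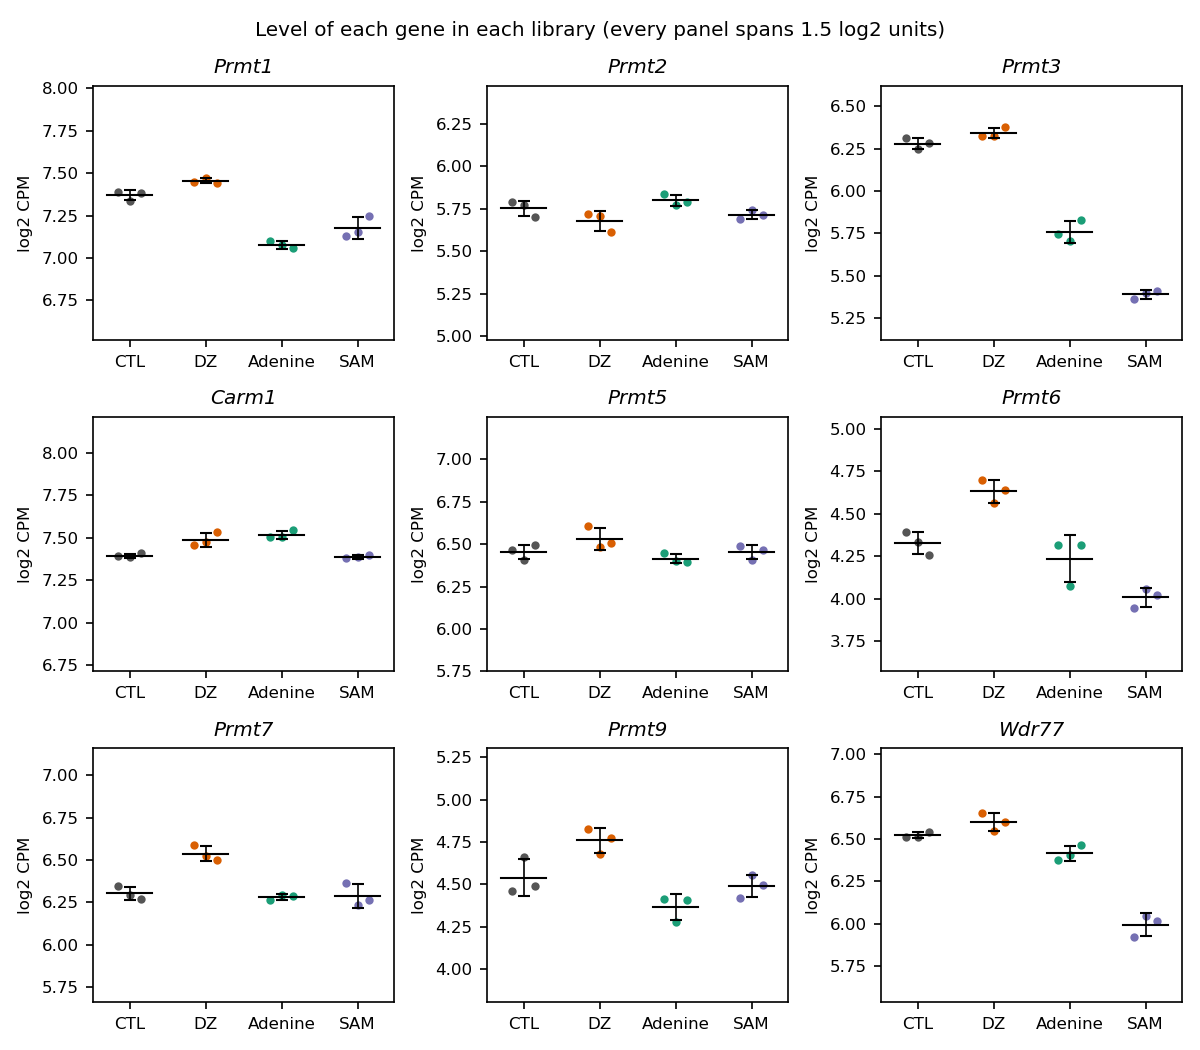
RNA level in log2 CPM of each of the 9 genes in each of the 12 libraries, with the mean and SD of the 3 dishes of a group as black bars, and every panel spanning the same height of 1.5 log2 units. Prmt3 shows the widest spread between groups, with SAM dishes between 5.36 and 5.41 and DZ dishes between 6.32 and 6.38, whereas the group means of Prmt5 lie within 0.12 of each other.

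Among type I enzymes, Prmt3 changed most. It encodes a cytosolic enzyme known for methylating the ribosomal protein RPS2 (chromosome 7, 49428083 to 49510996, plus strand). In CTL dishes 1 to 3 it was at 6.31, 6.25, and 6.28 log2 CPM, and with DZ at 6.32, 6.32, and 6.38. With adenine it was at 5.75, 5.70, and 5.83, and with SAM at 5.36, 5.40, and 5.41. All adenine dishes lay below all CTL dishes, and all SAM dishes lay below all adenine dishes. In mean CPM, here and below the mean log2 CPM turned back to CPM (a geometric mean), this was a fall from 77.7 in CTL to 54.2 with adenine and 42.0 with SAM. The difference from CTL was -0.52 with adenine (limma standard error 0.038, adjusted p = 5.89e-09) and -0.89 with SAM (limma standard error 0.038, adjusted p = 6.24e-12), and both were called in all 19 alternatives without a required fold change. SAM was also lower than adenine, by -0.37 (adjusted p = 1.16e-06 from limma). Under DZ the difference was 0.061 with a 95% interval of -0.020 to 0.14, which was not called (adjusted p = 0.18 from limma), although all DZ dishes lay above all CTL dishes.

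Prmt1 encodes the enzyme responsible for most asymmetric dimethylarginine in mammalian cells (chromosome 7, 44624620 to 44635992, minus strand). It was at 7.39, 7.34, and 7.38 log2 CPM in CTL and at 7.45, 7.47, and 7.44 with DZ. It was at 7.10, 7.08, and 7.06 with adenine and at 7.13, 7.15, and 7.25 with SAM. The dishes of adenine and SAM were all below those of CTL and did not overlap each other. Mean CPM fell from 165.3 in CTL to 135.1 with adenine and 144.7 with SAM. Prmt1 fell by 0.29 under adenine on the log2 scale (limma standard error 0.032, adjusted p = 9.29e-07) and by 0.19 under SAM (limma standard error 0.032, adjusted p = 6.20e-05). The fall under SAM was -0.070 with plain read totals as scaling and was then not called, nor was it with quantile normalization. The difference of SAM from adenine, 0.099, was not called (adjusted p = 0.0177 from limma), and neither was that of DZ from CTL, 0.086 (adjusted p = 0.0336 from limma).

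Prmt6, which encodes a nuclear enzyme that methylates histone H3, was the member with the least RNA per kb of the main annotated transcript (chromosome 3, 110153425 to 110158314, minus strand). It was at 4.39, 4.33, and 4.26 log2 CPM in CTL and at 4.70, 4.56, and 4.64 with DZ. It was at 4.32, 4.08, and 4.31 with adenine and at 3.94, 4.06, and 4.02 with SAM. DZ dishes were all above and SAM dishes all below those of CTL, whereas adenine and CTL overlapped and adenine dish 2 stood lower than the others of its group. Mean CPM was 20.1 in CTL, 24.8 with DZ, 18.8 with adenine, and 16.1 with SAM. Prmt6 rose by 0.31 under DZ (standard error 0.069, adjusted p = 0.00151 from limma) and fell by 0.32 under SAM (standard error 0.069, adjusted p = 5.93e-04 from limma). With plain read totals as scaling the fall under SAM was -0.20 and was not called. Its difference under adenine was -0.092, with a 95% interval of -0.24 to 0.056 (adjusted p = 0.248 from limma).

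Carm1, also called Prmt4, encodes a coactivator of nuclear receptors that methylates histone H3 (chromosome 9, 21458056 to 21503919, plus strand). It was at 7.39, 7.39, and 7.41 log2 CPM in CTL and at 7.46, 7.47, and 7.54 with DZ. It was at 7.50, 7.50, and 7.55 with adenine and at 7.38, 7.39, and 7.40 with SAM. The dishes of DZ and adenine were all above those of CTL, and those of SAM overlapped CTL. The rises were small, 0.094 under DZ (standard error 0.028, adjusted p = 0.00847 from limma) and 0.12 under adenine (limma standard error 0.028, adjusted p = 9.99e-04), or 6.76% and 8.81%, and the call under adenine was lost with median centring, at 0.071. The call under DZ held in 9 of the 19 alternatives and was lost when any CTL dish, or DZ dish 2 or 3, was left out, with an adjusted p up to 0.0535 from limma. Under SAM the difference was -0.0078 (95% interval -0.067 to 0.051), and with plain read totals as scaling it would be called, at 0.11.

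Prmt2, a coactivator with weak enzyme activity, was not called in any comparison at an FDR under 0.01 with the authors' scaling (chromosome 10, 76043044 to 76074260, minus strand). It was at 5.79, 5.77, and 5.70 log2 CPM in CTL and at 5.72, 5.71, and 5.61 with DZ. It was at 5.84, 5.77, and 5.79 with adenine and at 5.69, 5.74, and 5.71 with SAM. The dishes of every treatment overlapped those of CTL. The differences from CTL were -0.073 under DZ (95% interval -0.16 to 0.011), 0.047 under adenine (-0.037 to 0.13), and -0.037 under SAM (-0.12 to 0.047), with adjusted p = 0.125, 0.302, and 0.404 from limma.

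Of the complex that makes most symmetric dimethylarginine, the partner changed and the enzyme was not called. Prmt5 (chromosome 14, 54744636 to 54754982, minus strand) was at 6.46, 6.41, and 6.49 log2 CPM in CTL and at 6.60, 6.48, and 6.51 with DZ. It was at 6.45, 6.40, and 6.39 with adenine and at 6.49, 6.41, and 6.46 with SAM. The dishes of each treatment overlapped those of CTL. Its differences were 0.078 under DZ (95% interval -0.0027 to 0.16), -0.040 under adenine (-0.12 to 0.041), and -8.66e-04 under SAM (-0.082 to 0.080), with adjusted p = 0.0895, 0.357, and 0.984 from limma. Prmt5 thus had the narrowest spread of group means of the 9 genes, 0.118, and 97.2% of all genes had a wider one. Prmt2, with 0.120, and Carm1, with 0.130, were close to it. With plain read totals as scaling a rise of 0.12 would be called under SAM.

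Wdr77 (chromosome 3, 105866685 to 105877353, plus strand) was at 6.51, 6.51, and 6.54 log2 CPM in CTL and at 6.65, 6.55, and 6.60 with DZ. It was at 6.38, 6.41, and 6.46 with adenine and at 5.92, 6.05, and 6.02 with SAM. The SAM dishes lay below all the others, and the adenine dishes lay between those of SAM and CTL. Mean CPM was 91.9 in CTL, 85.3 with adenine, and 63.8 with SAM. Wdr77 fell by 0.53 under SAM (standard error 0.039, adjusted p = 5.79e-09 from limma), a call kept in all 19 alternatives, and SAM was lower than adenine by -0.42 (adjusted p = 4.26e-07 from limma). Under adenine the difference of -0.11 was not called (adjusted p = 0.0238 from limma), and neither was that of 0.079 under DZ (adjusted p = 0.0991 from limma). The fall under adenine was called with median centring, with only the 2 groups compared, and at an FDR of 0.05. Wdr77 shares 1389 exon bases with the long noncoding RNA Gm42890 on the same strand and 477 with Atp5pb on the opposite strand. In CTL the mean of Gm42890 was 3.21 log2 CPM (SD 0.19, n = 3), with differences of -0.28 under DZ, -1.29 under adenine, and -1.08 under SAM, and that of Atp5pb was 7.74 (SD 0.037, n = 3), with -0.067, -0.26, and -0.33. How reads over shared bases were divided is not given in the sources used here, and its part in the fall of Wdr77 was not tested.

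Prmt9, the other type II gene, encodes the enzyme that methylates the splicing factor SF3B2 (chromosome 8, 78275532 to 78309818, plus strand). It was at 4.46, 4.66, and 4.49 log2 CPM in CTL and at 4.83, 4.68, and 4.77 with DZ. It was at 4.41, 4.28, and 4.41 with adenine and at 4.42, 4.55, and 4.49 with SAM. All DZ dishes were above all CTL dishes, although CTL dish 2 (4.66) stood close to DZ dish 2 (4.68). The rise under DZ was 0.22 (standard error 0.065, adjusted p = 0.00848 from limma), and this call held in 10 of the 19 alternatives and was lost without CTL dish 1 or 3 or DZ dish 1 or 3, as well as with the replicate block. Its differences under adenine, -0.17, and SAM, -0.049, were not called (adjusted p = 0.0272 and 0.503 from limma). All adenine dishes lay below all CTL dishes, and the fall under adenine was called with median centring, with quantile normalization, and at an FDR of 0.05.

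Prmt7, the gene of the monomethylating enzyme, changed only under DZ among the comparisons with CTL (chromosome 8, 106936779 to 106979556, plus strand). It was at 6.35, 6.29, and 6.27 log2 CPM in CTL and at 6.59, 6.52, and 6.50 with DZ. It was at 6.26, 6.30, and 6.29 with adenine and at 6.36, 6.23, and 6.27 with SAM. The DZ dishes lay above all the others, and those of adenine and SAM overlapped CTL. The rise under DZ was 0.23, or 17.6% (standard error 0.038, adjusted p = 9.83e-05 from limma), and was called in all 19 alternatives. The differences under adenine and SAM were -0.021 (95% interval -0.10 to 0.060) and -0.016 (-0.097 to 0.066). On the opposite strand Prmt7 shares 840 exon bases with Slc7a6os and 381 with Smpd3, and Carm1 shares 1025 with Yipf2. Under DZ these neighbors differed from CTL by 0.12 (Slc7a6os), 0.21 (Smpd3), and 0.38 (Yipf2), and Smpd3 differed by 1.02 under adenine and 1.32 under SAM, where Prmt7 was not called.

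**Figure D3:**
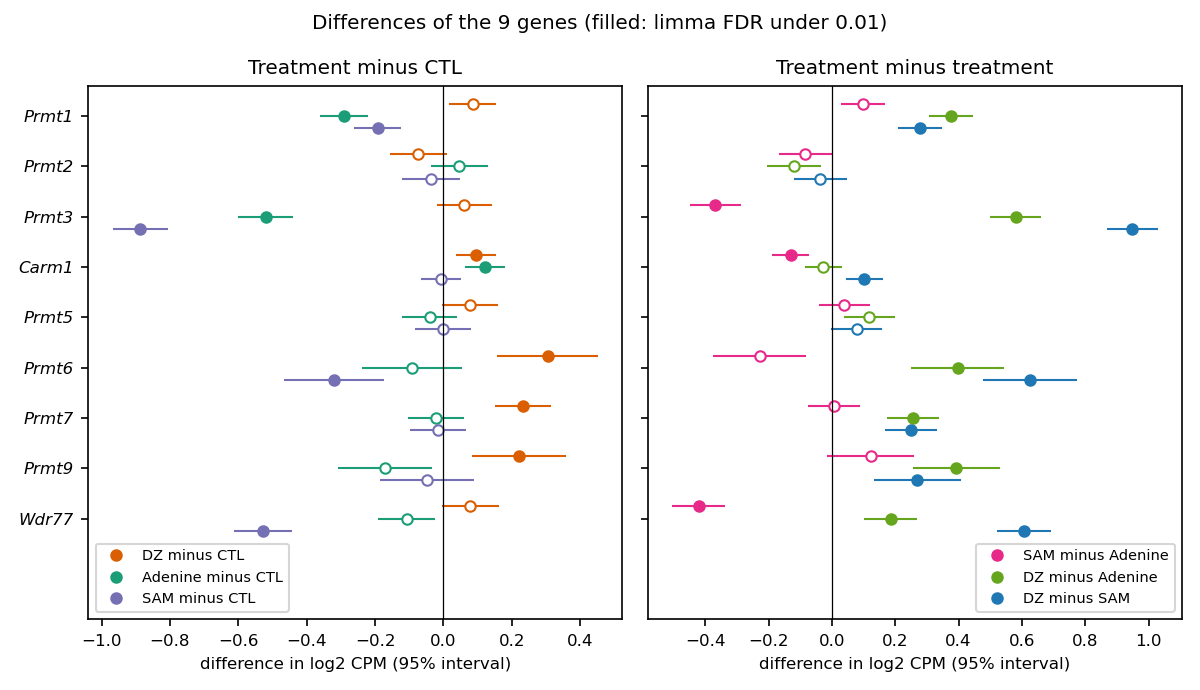
Differences in log2 CPM of the 9 genes with 95% intervals, each treatment against CTL on the left and the treatments against each other on the right, with filled points for genes past an FDR of 0.01 in limma. On the left, points of DZ past the threshold lie right of 0 and those of SAM lie left of it, down to -0.89 for Prmt3, and on the right no filled point of a DZ comparison lies left of 0.

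The treatments were also compared with each other, with DZ given at a dose different from that of adenine and SAM. DZ had the highest group mean for 7 of the 9 genes, all but Prmt2 and Carm1. Against adenine, 6 members were higher with DZ and none was lower (Prmt1, Prmt3, Prmt6, Prmt7, Prmt9, and Wdr77), where 64.3% of all genes were changed, 32.1% higher and 32.2% lower. Against SAM, 7 were higher with DZ (Prmt1, Prmt3, Carm1, Prmt6, Prmt7, Prmt9, and Wdr77) and none was lower, where 69% of all genes were changed, 35% higher and 34% lower. Of these 7, Carm1 was called in 13 of 19 alternatives and was at 0.0053 with plain read totals, where Prmt9, at 0.17, was not called either. With plain read totals Prmt2 was called lower with DZ, at -0.16 against adenine and -0.13 against SAM. Its differences under the authors' scaling, -0.12 and -0.036, were not called. The median difference of the members was 0.26 for DZ minus adenine and 0.27 for DZ minus SAM, compared with -0.0015 and 0.015 over all genes. Between adenine and SAM, given at the same dose, 3 members were lower with SAM (Prmt3, Carm1, and Wdr77) and none was higher, where 42.7% of all genes were changed, 20.8% higher and 22% lower. That none was higher depended on the scaling. Prmt1, at 0.099, was called higher with SAM in 5 of 19 alternatives, among them plain read totals, median centring, and quantile normalization.

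In each comparison of DZ with another treatment Prmt3 had the largest difference of the members, 0.95 for DZ minus SAM (adjusted p = 3.27e-12 from limma) and 0.58 for DZ minus adenine (adjusted p = 1.73e-09 from limma). For DZ minus SAM, Prmt6 followed with 0.63 and Wdr77 with 0.61. For DZ minus adenine, Prmt6, Prmt9, and Prmt1 lay between 0.38 and 0.40. Carm1 was higher with adenine than with SAM by 0.13 (adjusted p = 0.00101 from limma), a difference of 0.069 with plain read totals as scaling, which was not called. Prmt6 was lower with SAM than with adenine by -0.23, which was not called (adjusted p = 0.0114 from limma) but was called without adenine dish 2, at -0.31. Prmt5 was not called in any of the 3 direct comparisons, the closest being DZ minus adenine with 0.12 (95% interval 0.037 to 0.20, adjusted p = 0.011 from limma). Of the 16 member values called between treatments, 13 were called in all 19 alternatives, whereas of the 11 called against CTL 6 were.

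The genes whose profile over the 12 libraries was most like that of the 3 members with the widest spread of group means were found among 10939 protein-coding genes, by the root mean square difference of log2 values centred on the mean of each gene. For Prmt3 they were Slc25a39 (0.045), Tma16 (0.052), and Ncl (0.055), with Prmt3 itself spreading by 0.39 around its mean. For Wdr77 they were Cdkn1b (0.051), Fsaf1 (0.057), and Zfp639 (0.057), and for Prmt6 Thoc6 (0.073), Pigk (0.073), and Rad52 (0.074), with Wdr77 and Prmt6 each spreading by 0.24. Ncl, for instance, was at a mean of 9.58 log2 CPM in CTL, 9.61 with DZ, 9.01 with adenine, and 8.66 with SAM.

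Beyond the members, 84 names were listed, of which 78 were in the table. They cover partners and substrates of the enzymes, Tudor-domain proteins, the removal of methylarginine, the formation and removal of MTA, and other arginine methyltransferases. DZ changed 44 of the 78 (29 higher and 15 lower), adenine 39 (18 and 21), and SAM 58 (29 and 29), with median differences of 0.054, -0.0060, and -0.025 compared with -0.0057, -0.0030, and -0.015 over all genes. Over all genes the shares changed were 45.9% under DZ (22.6% higher and 23.4% lower), 61.6% under adenine (30.6% and 31%), and 69.3% under SAM (33.7% and 35.7%), so the share of the 78 was above that of all genes for DZ and SAM and below it for adenine. The counts of the single lists, of 24 genes at most, are given against the same shares.

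The cofactors of the PRMT5 complex are Clns1a, Riok1, and Coprs, adaptors that bring substrates to it. Under DZ 2 of the 3 were higher, Clns1a by 0.27 (adjusted p = 2.62e-04 from limma) and Riok1 by 0.24 (adjusted p = 2.97e-04 from limma). Under SAM Clns1a and Riok1 were lower, with -0.17 (adjusted p = 0.00431 from limma) and -0.20 (adjusted p = 7.70e-04 from limma), but with plain read totals as scaling they were at -0.051 and -0.080 and neither was called. Under adenine Coprs was lower, by -0.20, a call lost with plain read totals. Of the 3 genes, 2 were thus changed under DZ, 1 under adenine, and 2 under SAM, where 45.9%, 61.6%, and 69.3% of all genes were changed. The median of the list was 0.24 under DZ, -0.037 under adenine (0.024 with plain read totals), and -0.17 under SAM.

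The SMN complex loads the Sm proteins, once methylated by PRMT5, onto small nuclear RNAs. Of its 9 genes, 6 were higher and none lower under DZ, 5 were higher and 2 lower under adenine, and 5 were higher and 2 lower under SAM, with medians of 0.21, 0.28, and 0.53 (all genes changed: 45.9%, 61.6%, and 69.3%). The 7 genes changed under adenine and under SAM are thus near the share of all genes, and the counts were 5 and 1 under DZ with median centring and 5 and 1 under adenine and under SAM with plain read totals. Gemin6 rose by 0.26, 1.02, and 1.23 under DZ, adenine, and SAM, and Ddx20 by 0.20, 0.28, and 0.57. Gemin5, the subunit that recognizes the RNA, rose by 0.43 under DZ and fell by 0.32 under SAM. Smn1 itself was lower under adenine (-0.21, adjusted p = 0.00194 from limma), a call lost with plain read totals, and not called under DZ (-0.16) or SAM (-0.048, or 0.074 once scaled by plain read totals).

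Of 11 genes of Sm and Sm-like proteins and coilin, 6 were higher and 1 lower under SAM, and 2 were higher and 1 lower both under DZ and under adenine. The medians were 0.33, -0.035, and 0.052, respectively, and 69.3%, 45.9%, and 61.6% of all genes were changed. These counts depended on the scaling. With plain read totals 7 were higher and none lower under SAM, and 5 were higher and 1 lower under adenine (median 0.11). Median centring gave 6 and 3 under SAM and 1 and 2 under adenine. In the direct comparison 4 were higher and 1 lower with SAM than with adenine (median 0.17), where 42.7% of all genes were changed. That count was 5 and 1 both with plain read totals and with median centring. Snrpd1, a core Sm protein that PRMT5 methylates, rose by 0.41 under SAM (adjusted p = 1.99e-06 from limma) and was at 0.0014 under DZ and 0.099 under adenine, which were not called. Coil, the scaffold of Cajal bodies, rose by 0.37 under adenine and 0.64 under SAM. Snrpb fell by 0.29 under adenine, with values of -0.053 under DZ and -0.065 under SAM that were not called.

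Substrates with arginine-glycine (RGG) motifs, methylated mainly by PRMT1, were the largest list, with 24 genes. Under DZ 8 were higher and 6 lower, under adenine 6 and 8, and under SAM 6 and 12, but when plain read totals served as scaling the counts for SAM were 9 and 8 and its median moved from -0.11 to 0.017, and those for adenine were 9 and 7. With median centring 4 were higher and 6 lower under DZ. In either direction the main counts were 14, 14, and 18 of 24, where 45.9%, 61.6%, and 69.3% of all genes were changed. Ncl, the nucleolar protein nucleolin, fell by 0.57 under adenine and 0.92 under SAM. Taf15, an RNA-binding protein, fell by 0.98 under SAM and was at -0.030 under adenine. Alyref, an mRNA export adaptor, rose by 0.48 under adenine and 0.69 under SAM.

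Among 8 CARM1 substrates, 2 were higher and 1 lower under DZ, 1 and 1 under adenine, and 2 and 3 under SAM, where 45.9%, 61.6%, and 69.3% of all genes were changed. The balance turned with plain read totals, which gave 3 and 1 under adenine and 4 and 1 under SAM. Pabpc1, the cytoplasmic poly(A)-binding protein, fell in all 3 treatments, by 0.59, 0.83, and 0.87. Rbl1, a relative of the retinoblastoma protein, rose in all 3, by 0.25, 1.20, and 1.37. Elavl1, the RNA-binding protein HuR, rose by 0.18 under DZ, with 0.057 and 0.040 under adenine and SAM that were not called.

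Among 7 modulators and coactivator partners of the enzymes, 2 were higher and 2 lower under DZ, 1 and 2 under adenine, and 2 and 3 under SAM, where 45.9%, 61.6%, and 69.3% of all genes were changed. Plain read totals gave 2 and 1 both under adenine and under SAM. Btg1 and Btg2 bind PRMT1. Btg2 rose in all 3 treatments, by 0.39, 0.97, and 0.40, whereas Btg1 rose by 0.29 under DZ and fell by 0.13 under adenine and 0.14 under SAM, falls that were not called with plain read totals as scaling. Ncoa1, a nuclear receptor coactivator that works with CARM1, fell by 0.51 under adenine and 0.42 under SAM.

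Of 6 genes of Tudor-domain proteins, a domain that can bind methylated arginine, 1 was higher and 2 lower under DZ, none higher and 3 lower under adenine, and 2 higher and 2 lower under SAM, where 45.9%, 61.6%, and 69.3% of all genes were changed. The genes lower under adenine were 5 with median centring and 2 with plain read totals, and median centring left none higher and 2 lower under SAM. Snd1 fell in all 3 treatments, by 0.23, 0.49, and 0.80. Tdrd7 was higher with DZ by 0.61 and with SAM by 0.18, the latter not called with median centring, and Tdrd3 fell by 0.57 under SAM, with -0.054 and -0.12 under DZ and adenine that were not called.

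Free asymmetric dimethylarginine and monomethylarginine are degraded by the DDAH enzymes. Ddah1 rose in all 3 treatments, by 0.44, 1.03, and 0.82, and Ddah2 fell by 0.43 under DZ and rose by 0.42 under adenine and 0.80 under SAM. Of the 8 names of this list only these and Jmjd6, which was not called, were in the table. Ndufaf7, an arginine methyltransferase of mitochondria outside the PRMT family, rose by 0.35, 0.19, and 0.35, of which the rise under adenine was not called with median centring, at 0.14.

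MTA is formed in polyamine synthesis and removed by MTAP. Of the 8 genes of these steps, 4 were higher and 2 lower under DZ, none higher and 4 lower under adenine, and 3 higher and 4 lower under SAM, where 45.9%, 61.6%, and 69.3% of all genes were changed. With plain read totals 2 were higher and 3 lower under adenine and 3 and 3 under SAM. Mtap was higher with DZ, by 0.30 (adjusted p = 3.68e-07 from limma), and with SAM, by 0.14 (adjusted p = 2.62e-04 from limma), and was at 0.043 under adenine. Amd1, which decarboxylates SAM for polyamine synthesis, rose by 0.41 under DZ, fell by 0.18 under adenine, and rose by 0.22 under SAM, although its reads could be shared with its copy Amd2. Sms, spermine synthase, fell by 0.50, 0.25, and 0.18, the last of which was not called with plain read totals. Apip, of the salvage of methionine from MTA, fell by 0.30, 0.25, and 0.73, the fall under adenine not being called with plain read totals.

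**Figure D4:**
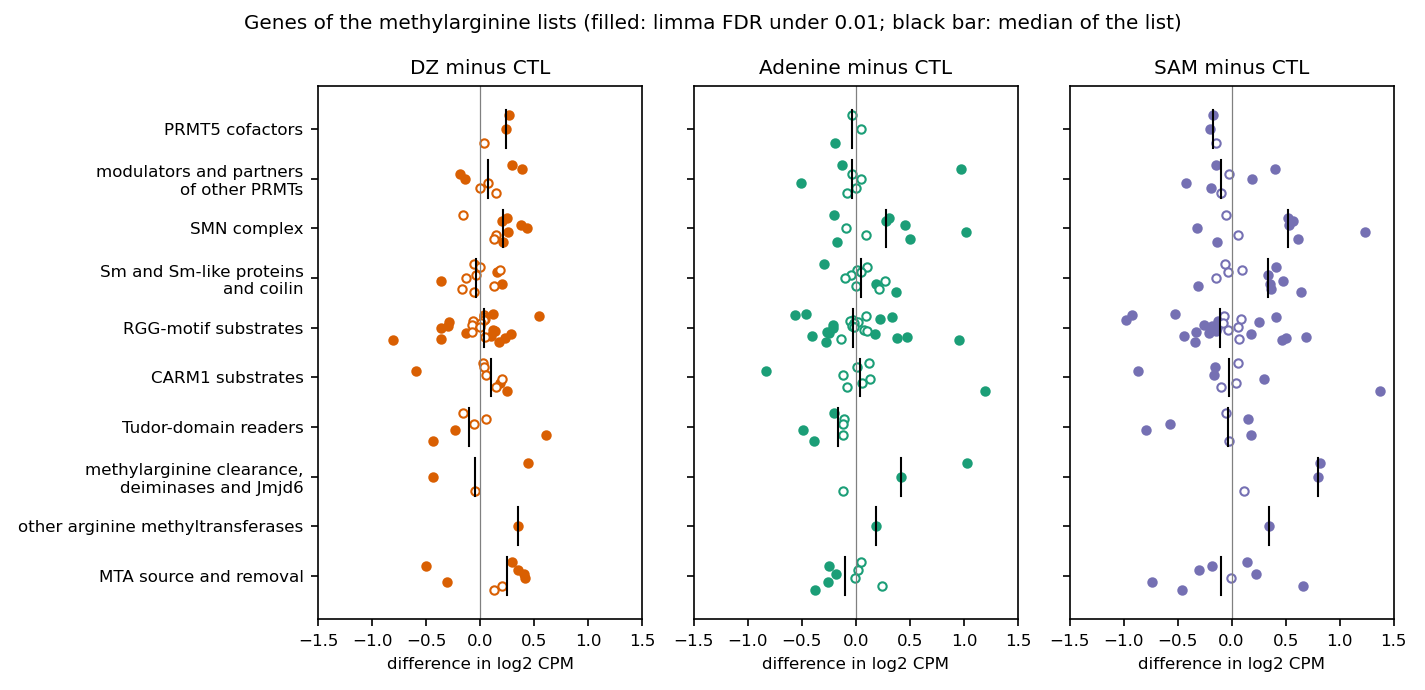
Difference from CTL in log2 CPM of each gene in 10 lists around arginine methylation, for DZ, adenine, and SAM, with filled points past an FDR of 0.01 in limma and a black bar at the median of each list. The SMN complex median lies at 0.21, 0.28, and 0.53, and the median of the PRMT5 cofactors at 0.24 under DZ and -0.17 under SAM.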

How the data were processed

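Polyadenylated RNA of 12 dishes, 3 in each of 4 groups, was sequenced with a stranded kit. Reads were processed by the authors with Trimmomatic, HISAT2 (mouse genome GRCm39, guided by a GENCODE annotation), and StringTie, and a gene had to reach 1 CPM in every library. The deposited values are log2 CPM on the library sizes that the authors normalized in edgeR. Whether strand was used in counting and how scaling factors were made are not given in the sources used here. Because the values are normalized log2 values, they were tested as they stand with limma 3.58.1 in R 4.3.3 (lmFit, contrasts.fit, eBayes), with the variance trend and a single model for the 12 libraries, and with Benjamini-Hochberg adjustment over all 12591 genes and an FDR of 0.01. Whole reads, recovered by taking off a prior count of 2, came out whole within 0.01 for 100% of values, and are estimates from coverage. They gave the depth of each library, an alternative test with voom, and total-read scaling. Positions and symbols come from GENCODE vM39, in which 12575 genes were matched by identifier. No pairing of same-numbered dishes is given in the sources used here, and the main model held no replicate block. Deviations of same-numbered dishes correlated between -0.142 and 0.181 over 18 pairs.

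The members, gene lists, and tests were chosen with earlier results of these data known. All members are named, and so are, per list, at most 3 genes (those of smallest adjusted p against CTL), plus Clns1a, Riok1, Coprs, Smn1, Mtap, Prmt8, and Ndufaf7. Alternatives changed the variance trend, the empirical Bayes method, the filters, the scaling, a pseudocount of 1 CPM, the FDR, a required fold change, the model, the genes and samples in the fit, and a replicate block, and left out each dish. The scripts were tested on simulated data.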

Additional observations from a re-analysis of the deposited data

How the results depend on the processing

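No called difference of a member changed sign under any alternative. Against CTL, the count of members changed by DZ moved from 4 to 2 without a variance trend, 2 with median centring, 2 with only the 2 groups compared, 0 with a required log2 fold change of 0.5, and 2 to 3 when 1 dish was left out. The required fold change left 1 member for adenine, 2 for SAM, 0 for SAM minus adenine, 1 for DZ minus adenine, and 3 for DZ minus SAM. An FDR of 0.05 gave 5 members for adenine and 5 for SAM minus adenine. With the replicate block, 3 members were called under DZ, 3 under adenine, 4 under SAM, 3 for SAM minus adenine, 7 for DZ minus adenine, and 7 for DZ minus SAM. All reversals were of small values that had not been called. With plain read totals as scaling, under SAM Prmt2 was at 0.085, Carm1 at 0.11, Prmt5 at 0.12, Prmt7 at 0.11, Prmt9 at 0.074, Snrpb at 0.057, and Smn1 at 0.074, under adenine Prmt5 was at 0.022, Prmt7 at 0.040, Clns1a at 0.024, and Taf15 at 0.031, and Prmt5 was at -0.018 for DZ minus SAM. With quantile normalization, Carm1 was at 0.078, Prmt5 at 0.026, Prmt7 at 0.0093, and Snrpb at 0.053 under SAM, Riok1 at -0.016 and Taf15 at 0.016 under adenine, and Snrpd1 at -0.023 under DZ. With median centring, Prmt2 was at -0.0044, Riok1 at -0.0059, and Mtap at -0.0083 under adenine, Snrpd1 at -0.013 under DZ, and Carm1 at 0.0092 for DZ minus adenine. With 1 dish left out, Snrpd1 ranged from -0.029 to 0.026, Coil from -0.11 to 0.027, and Tdrd3 from -0.12 to 0.0059 under DZ. Under adenine Taf15 ranged from -0.076 to 0.016 and Prmt7 from -0.038 to 5.52e-04, and under SAM Prmt5 ranged from -0.025 to 0.022, Prmt7 from -0.054 to 0.012, and Prmt9 from -0.087 to 0.014. Prmt7 ranged from -0.032 to 0.033 for SAM minus adenine. The cause of these shifts was not tested. With 3 dishes a group, an exact permutation test of a single gene cannot go below p = 0.1, so all calls rest on the spread that limma shares over genes.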

Other observations

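Between the treatments, the PRMT5 cofactors Clns1a, Riok1, and Coprs were all 3 higher with DZ than with adenine and than with SAM, with medians of 0.23 and 0.44, where 64.3% and 69% of all genes were changed, but with plain read totals as scaling only 2 were higher with DZ than with SAM. Of the 9 genes of the SMN complex, 2 were higher and 4 lower with DZ than with SAM (median -0.16), and 2 were higher and 1 lower with SAM than with adenine (median 0.12), where 69% and 42.7% of all genes were changed. Plain read totals gave 2 and 6 for the former and 4 and 1 for the latter. For the 24 RGG-motif substrates the direction between DZ and SAM depended on the scaling, with 12 higher and 8 lower with DZ, or 7 and 10 with plain read totals (median -0.013), where 69% of all genes were changed. Btg2 was lower with SAM than with adenine by -0.58 (adjusted p = 1.61e-06 from limma), whereas Btg1 differed by -0.011 (adjusted p = 0.749 from limma).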
